A study of Mus musculus with 6 samples.

Results

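The regions of mouse chromosome 4 in a comparison of liver tumors with normal liver are described here along the chromosome. They were taken as every region that the authors' deposited table places on chromosome 4, which gave 1009 of the table's 14176 regions, with 12731 on the other 18 autosomes. The table came from reduced representation bisulfite sequencing (RRBS), in which genomic DNA is cut with MspI at CCGG and bisulfite makes unmethylated cytosines read as T. The compared groups were 3 normal livers and 3 liver tumors of male C3H/HeN mice, the tumors with a Ha-ras mutation and the normal livers with no such selection stated. All mice were about 74 weeks old and were second-generation (F2) offspring of the control group of a gestational arsenic project, and the tumors are described as spontaneous. The sources used here do not say if any tumor shared its animal with a normal liver. The table holds 1 number per region, the mean methylation of the tumors minus that of the normal livers over the region's CpG cytosines, in percentage points (called points below). It holds no value per animal, so no spread between animals and no test over animals could be given, and the read depth behind each region is unknown here.

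The regions were chosen by the same contrast that is described. Each differs by 20 points or more in either direction and holds 3 or more CpG cytosines, of which 1 or more is a differentially methylated cytosine (DMC), and chromosome 4 was picked with its share of losses already known. All directions, shares and differences below are therefore descriptions with no test, and a region with a negative difference is called a loss (hypomethylated in tumors) and one with a positive difference a gain (hypermethylated). The members nearest to the table's minimum were losses listed under Nphp4 (-20.01 points), Raver2 (-20.01 points) and Pou3f2 (-20.04 points), and the table holds none below it. Just inside the study's own minimum of 30 points were losses at Ephb2 (-30.00 points), Ptpru (-30.03 points) and Igsf21 (-30.10 points), and just under it lay Rad23b (29.999 points), Tmem54 (-29.99 points) and C630028M04Rik (-29.98 points).

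Methylation of the cytosine in CpG dinucleotides is copied at each cell division and is removed when the copying fails or when enzymes oxidise the mark. In most mammalian tissues the bulk of CpGs between genes and within gene bodies is methylated, while CpG-dense starts of active genes are not. Tumors of many tissues lose methylation over wide, gene-poor stretches and gain it at particular sites, often near genes. Mouse chromosome 4 carries the cell cycle inhibitor genes Cdkn2a and Cdkn2b, the major urinary protein genes and a long distal part with many genes.

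The sequences of 6 regions are shown, because they were among the largest losses and gains by the naming rule, on the whole chromosome or within 2 kb of a transcription start site (TSS), and are short enough to read whole. They are from the GRCm38 (mm10) reference, which is C57BL/6J and not C3H/HeN, are written 5′ to 3′ on the + strand, and have each CpG in capitals. Here and below, a region is labelled a coding exon if any part of it overlaps coding sequence, so it can reach into an intron.
Ubxn11 coding exon listed under Sh3bgrl3, loss, chr4:134123642-134123852: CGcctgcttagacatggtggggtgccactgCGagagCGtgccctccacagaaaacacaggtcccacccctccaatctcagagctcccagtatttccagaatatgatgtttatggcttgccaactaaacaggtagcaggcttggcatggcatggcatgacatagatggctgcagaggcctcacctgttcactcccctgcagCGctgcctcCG
Fhl3 coding exon, loss, chr4:124705798-124706068: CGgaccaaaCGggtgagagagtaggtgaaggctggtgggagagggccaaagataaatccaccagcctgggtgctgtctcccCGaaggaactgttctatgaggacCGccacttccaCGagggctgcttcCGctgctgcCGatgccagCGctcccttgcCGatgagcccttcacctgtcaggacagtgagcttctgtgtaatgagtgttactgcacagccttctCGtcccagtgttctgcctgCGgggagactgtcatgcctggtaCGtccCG
C630028M04Rik upstream, loss, chr4:52052836-52053015: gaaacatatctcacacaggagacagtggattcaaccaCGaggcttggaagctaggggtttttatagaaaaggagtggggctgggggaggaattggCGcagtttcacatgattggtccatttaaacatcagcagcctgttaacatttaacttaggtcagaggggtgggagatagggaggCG
Gm12718 intron, gain, chr4:103383571-103383670: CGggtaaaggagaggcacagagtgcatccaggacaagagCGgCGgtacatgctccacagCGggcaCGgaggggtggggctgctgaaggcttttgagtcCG
C8b intron, gain, chr4:104767261-104767325: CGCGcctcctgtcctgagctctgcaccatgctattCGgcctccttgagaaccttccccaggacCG
Efhd2 coding exon, gain, chr4:141861809-141861943: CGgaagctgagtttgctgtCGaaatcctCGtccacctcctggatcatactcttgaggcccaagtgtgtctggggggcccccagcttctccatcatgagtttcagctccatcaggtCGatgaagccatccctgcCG
No CCGG lies inside any of the 6, and with 300 bp on each side they hold 2 sites each, apart from the Ubxn11 region with 4. The Fhl3 region spreads 13 CpG dinucleotides over 271 bp, while the C8b region packs 4 into 65 bp and the Gm12718 region 6 into 100 bp. The C630028M04Rik region, with 3 CpGs in 180 bp, is wholly repeat-masked.

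The 1009 regions covered 215 kb in all, with a median span of 167 bp. They held 7268 measured CpG cytosines, of which 3820 (52.6%) were DMCs, and 170 regions rested on 1 DMC. Strands are counted apart, so the same CpG can count as more than 1 cytosine or DMC. In 66.2% of the regions there were more cytosines than CpG dinucleotides. Their nearest listed TSSs belonged to 439 genes, of which 247 had a single region. Only 470 regions lay inside an annotated gene, and 196 of these (41.7%) lay in a gene other than the listed one by symbol, so below the gene a region lies in is given where it differs.

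Of the 1009 regions, 830 were losses and 179 were gains. This made 82.3% hypomethylated (exact 95% interval 79.8 to 84.6%), where the whole table has 85.1% and the other autosomes together 84.9%. Intervals here cover the counting of regions only, and neighbouring regions are not independent. Lower shares were found on chromosome 19 (74.8%), chromosome 8 (80.5%) and chromosome 11 (80.9%), chromosome 12 stood next to chromosome 4 at 82.28%, and the highest share was on chromosome 3 (90.7%). The interval of chromosome 4 overlapped those of chromosomes 8 (77.6 to 83.1%), 11 (78.2 to 83.4%) and 12 (79.0 to 85.2%) and did not reach that of chromosome 19 (69.4 to 79.7%). Relative to the CCGG sites that MspI can cut, chromosome 4 had 9.62 regions per 1000 sites and the other autosomes together 9.0, and per 1000 CCGG fragments of 40 to 220 bp the values were 43.4 and 43.1.

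Most of the differences of 40 points or more on chromosome 4 were gains. A difference of at least 30 points was reached by 217 regions (21.5%, against 23.5% of the whole table), of which 145 were losses (66.8%, interval 60.1 to 73.0%) and 72 gains, beside 76.3% losses over all regions of the table at that size. From 20 to 25 points, 12.6% of 547 regions were gains, close to the 11.8% on the other autosomes. From 40 to 50 points, 28 of 51 were gains (54.9%, against 38.4% of 477 elsewhere), and at 50 points or more 15 of 17 were (88.2%, against 59.1% of 164). At 40 points or more, the hypomethylated share was 36.8% on chromosome 4 (25 of 68, interval 25.4 to 49.3%) and 56.3% on the other autosomes (52.4 to 60.2%), and among single autosomes it ran from 35.0% on chromosome 8 to 70.97% on chromosome 3. The 43 gains of this size came from 38 separate places when regions within 10 kb were counted once. Of the 43 gains 36 lay inside genes, beside 122 of all 179 gains and 13 of the 25 losses of this size. At 50 points or more the order changed, and 4 autosomes had a lower share of losses than chromosome 4, the lowest being chromosome 12 with 0%.

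**Figure D1:**
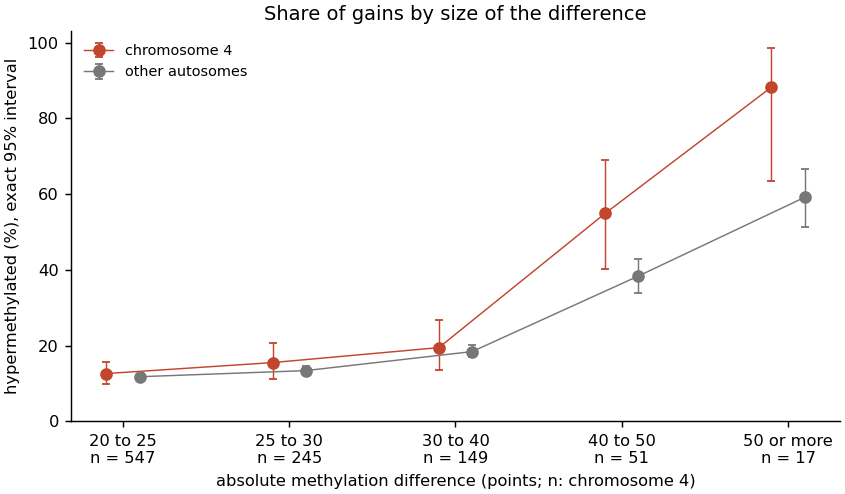
Share of regions with a gain of methylation (y axis, percent) by the absolute size of the difference (x axis, points), for chromosome 4 and for the other 18 autosomes together. Bars are exact 95% intervals over regions. The points nearly coincide up to 40 points and separate above it, to 88.2% and 59.1% at 50 points or more.

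Many of the largest differences lay in exons and introns, and others were intergenic. The rule for naming the largest differences asked for at least 80% of a region's cytosines to be DMCs. High DMC counts in the regions it names were therefore set by that choice. Gm12718, a predicted gene, had the largest gain, 60.7 points with 10 of 10 cytosines DMCs in its intron, 1071 bp downstream of the TSS (chromosome 4 from 103383571 to 103383670). A region in an intron of Ssbp3, which encodes a partner of LIM-domain transcription factors, stood at 60.2 points but had 4 cytosines, too few for the naming rule, and was chosen after its value was seen (listed under Mrpl37). A coding exon of Efhd2, which encodes a calcium-binding protein, was 58.2 points higher in tumors with 8 of 8 DMCs, and a coding exon of Arhgef19 was 55.8 points higher with 12 of 12. All these regions lay beyond 100 Mb from the centromere end. That part held 11 of the 15 gains of 50 points or more, beside 135 of all 179 gains and 661 of all 1009 regions.

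An intron of Chd7, which encodes a chromatin remodelling enzyme, stood at 54.4 points with 5 of 5. An intron of Ece1, the endothelin-converting enzyme gene, had 54.4 points with 12 of 13, and a coding exon of Agmat, the agmatinase gene, 54.0 points with 21 of 22. Of these genes Chd7 alone lies in the gene-poor part of the chromosome, with its region at chromosome 4 from 8764573 to 8764612.

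Losses of that size were few. The largest loss on the chromosome was intergenic and was listed under Slc45a1, at -58.5 points over 3 cytosines, and was chosen after its value was seen. A coding exon of Ubxn11 listed under Sh3bgrl3 stood at -49.4 points (5 of 5 DMCs) and a coding exon of the LIM-domain gene Fhl3 at -49.1 points (12 of 12). Further losses by the naming rule were at 6330416G13Rik (-48.9 points), in Mob3b (-41.9 points, listed under 2410114N07Rik), in a coding exon of the retinol dehydrogenase gene Sdr16c5 (-41.2 points) and at Pou3f1 (-45.9 and -41.1 points).

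Pou3f1, a transcription factor gene of the nervous system, had regions of opposite sign side by side. Its 5 regions included 3 losses and 2 gains. The gain of 42.2 points, with 26 of 30 cytosines DMCs, ended at 124672612. It was followed by the gain of 29.0 points, with 8 of 11 DMCs, which ended at 124673437. Next came the loss of -45.9 points, with 13 of 14 DMCs, which began at 124674834. These regions were intergenic and lay 14584, 15663 and 17188 bp downstream of the TSS. Such neighbours were uncommon over all pairs: of 189 pairs of adjacent regions within 10 kb, 147 were both losses, 22 both gains and 20 of opposite sign, so 89.4% shared a direction, beside 92.2% of 1663 pairs on the other autosomes. Because most regions were losses, many pairs share a direction in any case. Of the gains in these pairs, each counted once per pair, 68.75% had a gain as partner and the rest a loss (75.1% a gain on the other autosomes).

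**Figure D2:**
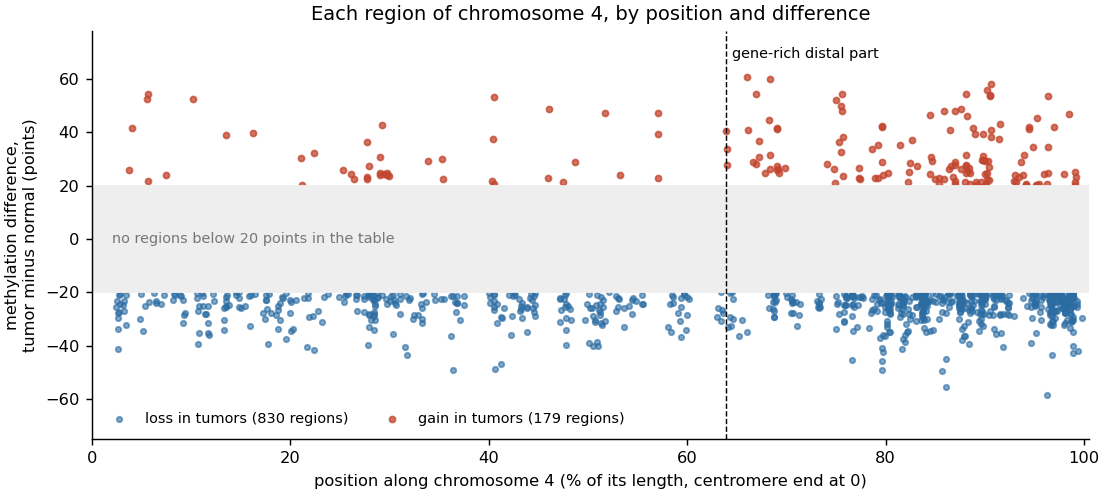
Each of the 1009 regions by its position along chromosome 4 (x axis, percent of the chromosome's length from the centromere end) and its methylation difference, tumor minus normal (y axis, points), with losses in blue and gains in red. The grey band is the range of differences the table does not hold, and the dashed line is the start of the gene-rich distal part. Losses form a band close to -20 points over the whole length, and gains reach further from 0, up to 60.7 points.

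The chromosome was split where its gene density changes. The mean was 9.98 gene starts per Mb over 1562 annotated gene starts, and the unbroken run of 10 Mb windows at or above it that reaches the chromosome's end began at 100 Mb. This gene-rich distal part, 56.5 Mb with 16.6 gene starts per Mb, held 661 regions, and the remaining 100 Mb, with 6.26 gene starts per Mb, held 348. Per 1000 CCGG sites the distal part had 12.1 regions and the gene-poor part 6.95. Within the distal part the count differed by window, from 6.90 regions per 1000 sites at 100 to 110 Mb to 17.8 in the last window. The gene-rich window from 40 to 50 Mb, inside the gene-poor part with 19 gene starts per Mb, had 6.94.

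Losses were the majority in both parts. They made up 79.6% of the distal regions (526 of 661, interval 76.3 to 82.6%) and 87.4% of the gene-poor ones (304 of 348, interval 83.4 to 90.7%), a difference of -7.78 points in share. Among regions of at least 30 points the shares were 60.6% of 137 and 77.5% of 80. Distal regions lay closer to TSSs, with a median distance of 28927 bp against 130019 bp, and when the gene-poor part was weighted to the distal part's TSS distances its share was 80.3% and the difference -0.77 points, and with the boundary at 110, 120 or 130 Mb the difference at equal TSS distance turned to 5.68, 5.33 and 1.04 points. Within 2 kb of a TSS the shares were 62.9% of 35 distal and 73.3% of 15 gene-poor regions, from 2 to 20 kb they were 71.8% of 238 distal and 69.8% of 63 gene-poor regions, from 20 to 100 kb they were 82.6 and 84.1%, and from 100 to 500 kb they were 92.7 and 94.5%. Regions over 500 kb from a TSS occurred in the gene-poor part only, where 60 of 61 were losses. Repeats also differed, with 9.68% of distal and 45.1% of gene-poor regions at least 50% repeat-masked, and among regions under that limit the difference between the parts was -1.57 points.

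Along the windows the hypomethylated share did not follow gene density step by step. The lowest share was 56.2% from 100 to 110 Mb (27 of 48 regions, interval 41.2 to 70.5%), where gene starts were near the chromosome's mean, and the next was 70.1% from 140 to 150 Mb (89 of 127, interval 61.3 to 77.9%). The highest among the distal windows was in the last, from 150 Mb to the end, with 91.9% (136 of 148, interval 86.3 to 95.7%) at 19.7 gene starts per Mb. That share is close to those of gene-poor windows such as 20 to 30 Mb (94.7% of 38) and 90 to 100 Mb, the highest of all at 95.8% of 24. Weighted to equal TSS distance, the window from 100 to 110 Mb stood -25.3 points from the rest of the chromosome, that from 140 to 150 Mb -10.4 points and the last window 9.32 points. Without the last window the distal share was 76.0% and the difference between the parts -11.3 points, and without the window from 140 to 150 Mb it was -5.52 points.

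**Figure D3:**
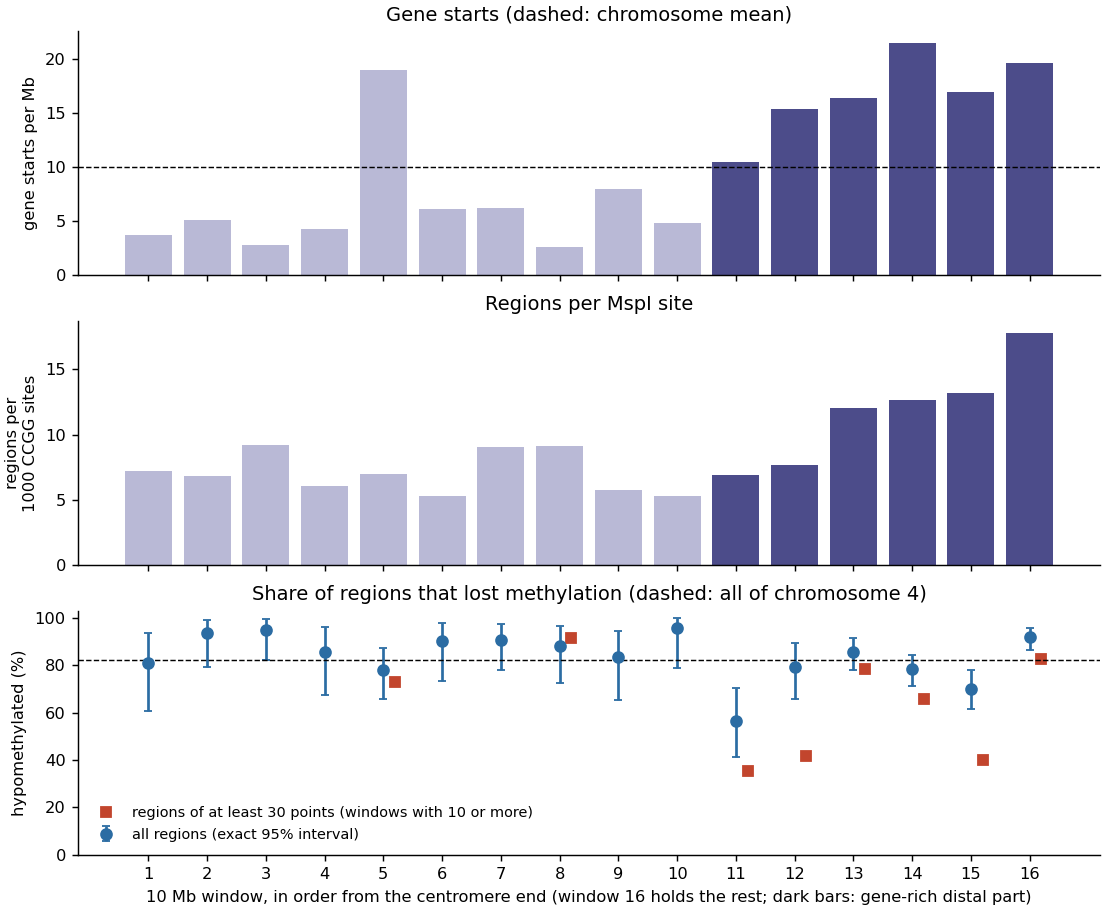
Gene starts per Mb, regions per 1000 CCGG sites, and the percentage of regions with a loss of methylation, in 10 Mb windows numbered from the centromere end. Dark bars are the gene-rich distal part, bars on the points are exact 95% intervals, and squares are regions of at least 30 points where a window has 10 or more. Window 11 lies lowest at 56.2% and window 16, the last, has the most regions per site and 91.9% losses.

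Read in order, the chromosome had 24 runs of 3 or more gains in a row, with 102 of the 179 gains. Of these runs 18 were distal, as were 135 of all 179 gains. The longest was 8 gains from 103383571 to 106245086, which held the Gm12718 region at 60.7 points, further regions in introns of Gm12718 (40.8 points) and of Dab1 (29.1 points), 2 regions listed under C8b (54.5 and 28.3 points), 2 in introns of Plpp3 (30.7 and 36.8 points, listed under its older symbol Ppap2b) and 1 in Gm12724 (24.7 points, listed under Usp24). Dab1 encodes an adaptor of the reelin pathway and Plpp3 a lipid phosphate phosphatase. A further run of 7 gains, from 108019650 to 109394279, included all 3 regions in Scp2, which encodes the sterol carrier protein of peroxisomes, at 25.9, 41.3 and 41.7 points (listed under Mir6397). Together with the 3 gains in Ssbp3, these runs fall in the window with the lowest share of losses.

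From 117926460 to 118516908 another 7 gains in a row had a median of 38.2 points, and 6 of them reached 30 points. This run began with the region that has most CpG cytosines on the chromosome, in a coding exon of Artn, which encodes a neurotrophic factor of the GDNF family, at 36.5 points with 82 of 102 cytosines DMCs. It also held a coding exon of the histone demethylase gene Kdm4a (32.7 points, listed under St3gal3), regions in 2 introns of Ptprf, a receptor tyrosine phosphatase gene (49.8 and 48.0 points) and intergenic regions listed under Tie1 (38.2 points) and 2610528J11Rik (23.7 points). All 5 regions in Ece1 were gains, between 24.8 and 54.4 points, next to a gain over the TSS of Alpl, the tissue-nonspecific alkaline phosphatase gene (21.5 points). Over 118 kb that hold the Agmat gene lay 5 gains in a row: 53.7 points upstream of Agmat, 54.0 points in its exon, 38.2 points in an intron of the caspase gene Casp9, 40.7 points in Efhd2 (listed under Ctrc) and 58.2 points in the Efhd2 exon.

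Another set of gains lay in a distal stretch with many copies of zinc finger genes, between regions listed under Smarca5-ps and Mfn2 (145464035 to 147894671). Its bounds were chosen after the values were seen. Of its 15 regions 11 were gains (beside 179 of all 1009), with 8 to 68 cytosines each and a median of 18. A CpG island as defined here from sequence was touched by 9 of the 11, beside 37 of all 179 gains. Apart from 2 regions in Mfn2, the mitofusin gene (41.4 and 41.9 points), these gains were smaller, at 20.2 points (in Zfp978) to 31.7 points (listed under 4933438K21Rik), and 2 of the 11 had 80% or more of their cytosines called DMCs. Many genes there are near copies of each other, and how well reads could be placed was not tested, so these values are uncertain.

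With 82.3% of all regions losses, 15 unbroken runs of 20 or more losses held 431 of the 830. The longest, 42 losses from 130533350 to 132166023, ran over 1633 kb through Nkain1, Sdc3, Laptm5, Matn1, Ptpru and Oprd1, with a median of -23.8 points and 6 regions past 30 points. Its 15 regions listed under A930031H19Rik, a non-coding RNA gene, were all intergenic and spread over 407 kb. In the gene-poor part, 36 losses in a row from 63394846 to 69954475 had a median of -25.6 points and passed Pappa, Astn2, Tlr4 and Brinp1.

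Single long genes carried many losses. Camta1, which encodes a calmodulin-binding transcription factor, held 34 regions over 621 kb, of which 33 were losses, with a median of -24.3 points and the largest at -43.4 points, and the exception was a gain of 42.0 points. Of these, 25 were listed under Vamp3, the gene with most regions on the chromosome by listed TSS, although none lay in Vamp3. Prdm16, which encodes a transcription factor of brown fat, held 17 losses and no gain over 297 kb, 12 of them listed under Arhgef16 (14 regions in all). Grik3, a kainate receptor gene, held 14 losses and 1 gain (24.8 points), 14 of the 15 being listed under Mir692-3. Smaller sets with losses only were in Csmd2 (9), the zinc finger gene Hivep3 (9), the ephrin receptor gene Ephb2 (8) and the p53-family gene Trp73 (8, from -25.1 to -20.3 points).

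By listed TSS the genes with most regions after Vamp3 were Ajap1 (20, of which 19 losses), Igsf21 (16, 14 losses), A930031H19Rik (15), Arhgef16 (14), Mir692-3 (14, 13 losses), Tyrp1 (13 losses, all intergenic over 1140 kb) and Gm833 (11 losses). In all, 65 genes were nearest to 4 or more regions, and for 52 of them every region was a loss. Counted by the gene a region lies in, 36 genes held 3 or more regions: 22 held losses only, 4 held gains only (Ece1, Rusc2, Scp2 and Ssbp3) and 10 held both, such as Arhgef10l with 2 losses and 3 gains between -32.7 and 39.5 points.

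**Figure D4:**
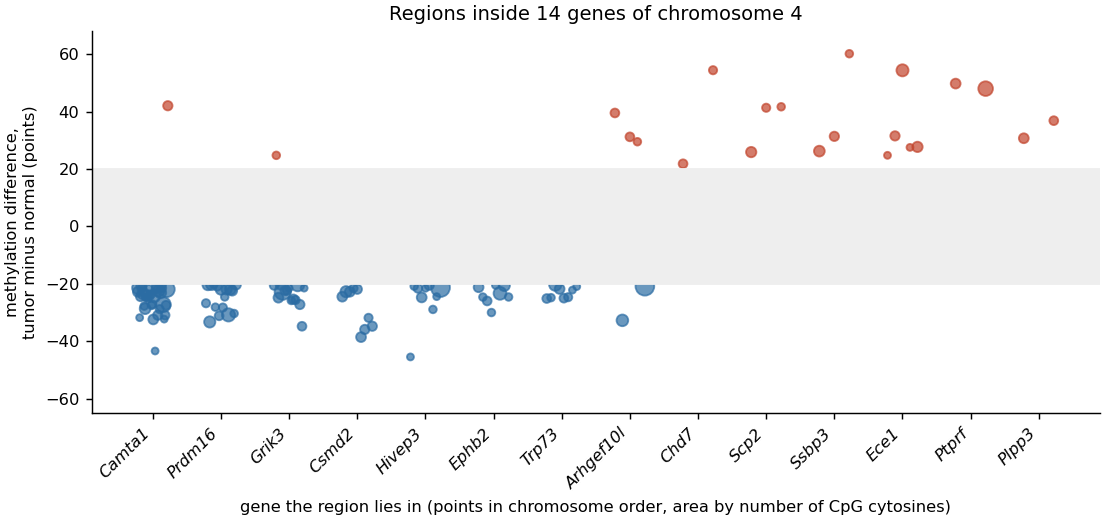
Methylation differences (y axis, points, tumor minus normal) of every region inside 14 genes, chosen after their values were seen; each point is 1 region in chromosome order and its area grows with its number of CpG cytosines. Camta1, Prdm16, Grik3, Csmd2, Hivep3, Ephb2 and Trp73 hold nearly only losses, and Chd7, Scp2, Ssbp3, Ece1, Ptprf and Plpp3 gains.

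At the TSS the split was more even than elsewhere. Of 50 regions within 2 kb of the listed TSS, 33 were losses (66.0%, interval 51.2 to 78.8%), beside 66.6% of 802 on the other autosomes. Gains there were led by Gm12718 and by C8b, which encodes a chain of the complement membrane attack complex made in the liver, at 54.5 points with 7 of 7 DMCs, 944 bp downstream of its TSS. Extl1, an exostosin-family glycosyltransferase gene, stood at 48.1 points with 44 of 46 cytosines DMCs over 521 bp, 927 bp downstream. Oxct2b, a testis form of the ketone body transferase, stood at 33.7 points over its TSS with 72 of 93 cytosines DMCs, and Rab42, a small GTPase gene, at 30.8 points with 6 of 6.

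Losses near TSSs were smaller. The largest were upstream of Zfp362 (-34.6 points, 3 of 6 DMCs), at Sdr16c5 (-33.9 points, 4 of 5), upstream of Pik3cd, the leukocyte PI3-kinase catalytic subunit gene (-30.4 points, 7 of 11), at C630028M04Rik (-29.98 points, 2 of 4) and at Zbtb8os (-28.5 points, 2 of 3). In Sdr16c5 the region at the TSS and the one in a coding exon further in (-41.2 points) were both losses. The regions at C630028M04Rik and Zbtb8os were wholly repeat-masked. Of the 9 regions near TSSs that reached 30 points, 6 were gains, beside 72 of all 217 chromosome 4 regions of that size.

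Losses were more frequent at greater distance from the TSS, on chromosome 4 and on the other autosomes. From 2 to 20 kb, 71.4% of 301 regions were losses, beside 75.7% on the other autosomes. From 20 to 100 kb the shares were 83.0% of 347 and 84.6%, from 100 to 500 kb 93.6% of 250 and 95.8%, and beyond 500 kb 98.4% of 61 and 98.5%. In each of the 5 classes chromosome 4 stood below the other autosomes, with differences of -4.30 to -0.13 points, and its interval overlapped that of the others in each. Weighting the other autosomes to the distances of chromosome 4 gave 84.7%, so at equal TSS distance chromosome 4 stood at -2.43 points, and 4 of the 19 autosomes had a lower value when each was set against the rest in the same way, chromosome 19 the lowest at -7.58 points. Among regions with at least 10 CpG cytosines the sign turned, at 1.85 points.

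For regions of at least 30 points the gap at equal TSS distance was -9.24 points. It was widest near genes. Within 2 kb 3 of 9 regions were losses on chromosome 4 (33.3%, interval 7.5 to 70.1%, against 59.8% of 209, interval 52.8 to 66.5%), too few to place the share closely. From 2 to 20 kb 32 of 68 were losses (47.1%, interval 34.8 to 59.6%, against 64.8% of 859, interval 61.5 to 68.04%), the lowest share of any autosome in that class. From 20 to 100 kb the shares were 68.8 and 72.0%, from 100 to 500 kb they were 87.0 and 94.2%, and beyond 500 kb all 17 regions of chromosome 4 were losses. Gains in the 2 to 20 kb class include those in Efhd2, Arhgef19 and Agmat described above.

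**Figure D5:**
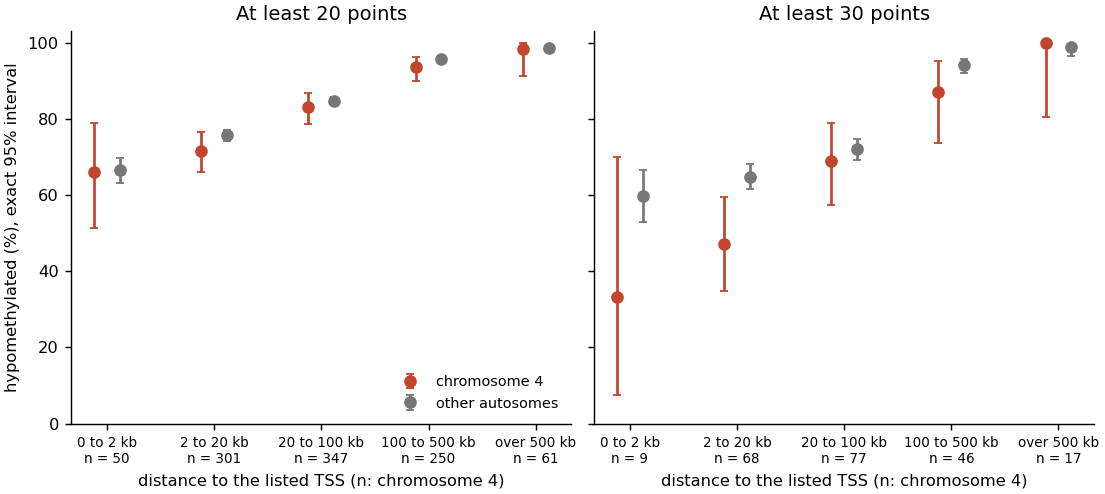
Percentage of regions with a loss of methylation (y axis) in 5 classes of distance to the listed TSS (x axis), for all regions (left) and those of at least 30 points (right), on chromosome 4 and on the other 18 autosomes together. Bars are exact 95% intervals. Shares are higher at greater distance on both, from 66.0 to 98.4% on chromosome 4, and in the right panel the 2 to 20 kb class stands at 47.1% against 64.8%.

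Gains and losses differed in where they lay. Of the 539 intergenic regions 89.4% were losses, of 354 intronic ones 76.6%, and of 87 that touched a coding exon 64.4% (the other autosomes had 91.7, 80.2 and 67.5%). In CpG islands 37 of 89 regions were gains (41.6%), in island shores 36 of 193 and elsewhere 106 of 727 (14.6%). Regions with 3 or 4 cytosines were losses in 88.6% of 422 cases, and those with 20 or more in 16 of 37 (43.2%, beside 44.4% elsewhere). Gains had a median of 7 cytosines, 62.5% of them DMCs, at 14961 bp from the TSS, and losses 5 cytosines, 50% DMCs, at 55620 bp. The GC content of the region with 500 bp on each side was 50.9% in gains and 49.1% in losses, and on the other autosomes 50.3 and 46.7%. Regions at least 50% repeat-masked made up 9.50% of gains and 24.6% of losses on chromosome 4, and 5.01 and 29.9% elsewhere.

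Genes of liver function were read from a list of hepatocyte metabolism and secreted proteins. Of its 44 genes on the chromosome, 14 were nearest to a region, with 10 losses and 9 gains among 19 regions (52.6% losses, beside 82.3% of all chromosome 4 regions). Gains were 5 of the 7 that reached 30 points, beside 72 of all 217 chromosome 4 regions of that size. The region listed under Ctrc, which lies in Efhd2, is among these 5. Besides C8b and Agmat, an intron of Orm1, the gene of the acute-phase alpha-1-acid glycoprotein, stood at 53.4 points with 3 of 3 cytosines DMCs. It belongs to a run of 4 gains that also holds Orm3 (20.6 points), Ambp, the alpha-1-microglobulin precursor gene (21.9 points), and an intron of the collagen gene Col27a1 (37.6 points). Losses on the list included 2 intergenic ones, -27.9 points 5270 bp upstream of the thioesterase gene Ppt1 and -20.5 points 154127 bp upstream of the aconitase gene Aco1. Counted by the gene they lie in, 6 of 14 regions were losses (42.9%, beside 74.0% of all 470 regions in genes).

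Several gene clusters known for liver or immune expression had no region, unlike the Orm genes described above. None lay between the outermost of the 22 major urinary protein genes, 2194 kb with 887 CCGG sites, nor in the Skint cluster (2325 kb, 862 sites), the type I interferon genes (255 sites), the Cyp4 genes (286 sites) or the Cyp2j genes (256 sites). At the chromosome's average of 9.62 regions per 1000 sites these stretches would hold 8.53, 8.29, 2.45, 2.75 and 2.46 regions. At local rates these counts would be lower. The gene-poor part, which holds the urinary protein, interferon and Cyp2j genes, had 6.95 regions per 1000 sites. The window from 110 to 120 Mb, which holds the Skint and Cyp4 genes, had 7.69. How many of these sites were covered by reads is not known here, and how well reads could be placed among similar genes was not tested. The olfactory receptor genes had 9 regions at 8 of 25 genes, all losses, the largest upstream of Olfr70 (-33.0 points). The genes named Zfp were nearest to 7 regions, all losses. These are small sets, and 82.3% of all chromosome 4 regions were losses. None of the gains in the zinc finger stretch described above was listed under a Zfp symbol. By the gene they lie in, the Zfp genes held 2 losses and 1 gain.

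Cell cycle genes, oncogenes and tumor suppressors had 32 losses and 9 gains by listed TSS (78.05% losses, near the 82.3% of all regions). Cdkn2a and Cdkn2b, which encode the inhibitors p16, p19Arf and p15 of the cell cycle, carried 3 gains in a row: 22.7 points in a coding exon of Cdkn2a (9 of 20 cytosines DMCs), 39.4 points upstream in Gm12610 (4 of 4) and 47.3 points in a coding exon of Cdkn2b (8 of 8). An intron of Prdm2, a histone methyltransferase gene, stood at 43.2 points with 3 of 3. Of the 10 regions of this list past 30 points, 6 were gains, beside 72 of all 217 on the chromosome. The losses were at Rap1gap (-36.4 points), Pik3cd and, in 2 regions, Camta1. By the gene they lie in, 66 of 76 regions were losses (beside 74.0% of all 470 regions in genes), of which Camta1 and Prdm16 held 50 together.

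Chromatin genes were nearest to 7 regions, of which 3 were losses (42.9%, beside 82.3% of all regions) and 4 gains. Of these gains 3 were at Chd7 (52.4, 21.8 and 54.4 points) and 1 at Prdm2. By the gene they lie in, 18 of 23 regions of this list were losses (78.3%, near the 74.0% of all 470 regions in genes). Of these losses 17 lay in Prdm16. Developmental transcription factors had 55 losses among 59 regions (93.2%, beside 82.3% of all), led by Pou3f1, Hivep3 (-45.5 points), Casz1 (-35.4 points) and Zfp362. Neuronal adhesion, channel and receptor genes had 79 losses among 84 regions (94.0%, beside 82.3% of all). Among these were intergenic losses of -40.2 points listed under Ptprd (750001 bp upstream) and -36.3 points listed under Pde4b (120759 bp upstream). In this list Ptprf at 48.0 points and Camta1 at 42.0 points went the other way. Regions of the Wnt, TGF-beta, Notch and receptor list were losses in 26 of 31 cases (83.9%, near the 82.3% of all regions). These included -39.4 points listed under Epha7, intergenic and 1022944 bp upstream of its TSS, and -37.8 points in an intron of Wnt4. Gains of this list included those listed under Tie1 (38.2 points) and Ror1 (33.9 points). Complement and immune genes had 14 losses among 16 regions (87.5%, beside 82.3% of all), Tnfsf8 the largest at -31.5 points, with both gains at C8b. The lists differ in how far their regions lie from a TSS, and they were not compared at equal TSS distance.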

How the data were processed

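RRBS libraries of 3 normal livers and 3 liver tumors were the source. The authors trimmed reads with Trim Galore, aligned pairs with a unique best hit to mm10 with Bismark, counted C and T per CpG cytosine with strands apart and called DMCs with methylKit (logistic regression, with minimums on q-value, coverage and difference), built regions with eDMR and found the nearest RefSeq TSS with bedtools 2.25.0. The sources used here give no other tool versions. Per region, the authors' deposited table gives the mean methylation difference in percentage points, the numbers of CpG cytosines and of DMCs, and the TSS distance, all pooled over the samples of a group. It has no value per sample, so no test was run.

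Of the chromosome 4 starts, 13.3% lay in a CpG as deposited and 100% after adding 1, so 1 was added and all coordinates are 1-based. Placement in genes, CCGG sites, repeats and CpG islands (merged 200 bp windows with GC of 50% or more and an observed to expected CpG ratio from 0.6 up, kept from 300 bp, with 2000 bp shores) came from the GRCm38 sequence and RefSeq annotation. Any overlap with coding sequence placed a region in the coding exon class, and those called intronic touched no annotated exon. The listed accession was annotated on chromosome 4 for 983 of the 1009 regions and was not in the annotation used here for 10. The sign of the deposited TSS distance is genomic, and upstream or downstream was read with the strand.

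Shares carry exact (Clopper-Pearson) 95% intervals. Shares at equal TSS distance are class shares weighted by class size over 5 classes (edges 2, 20, 100 and 500 kb), a step tested on simulated data. Python 3.11.15, pandas 2.3.3 and scipy 1.17.1 were used.

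Named regions were the 8 largest losses and gains with at least 30 points, 5 cytosines and 80% DMCs, the 5 largest of each within 2 kb of a TSS, the 8 genes with most regions (at least 4), up to 4 listed genes per list past 30 points, the region with most cytosines and the 3 nearest the minimum. Others were chosen after their values were seen, and some that the rule names are not reported here. The members, lists and rules were chosen with earlier results of these data known.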

Additional observations from a re-analysis of the deposited data

How the results depend on the processing

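No paired analysis was possible because the table has no value per sample, and for the same reason no library could be left out. The hypomethylated share of chromosome 4, 82.3%, was 76.2% from 25 points up, 66.8% from 30 and 36.8% from 40, 77.7% with at least 5 and 71.04% with at least 10 cytosines, 75.5% with at least 3 DMCs and 79.4% under 50% repeat-masked. At equal TSS distance the difference from the other autosomes, -2.43 points, was -5.76, -9.24 and -17.3 points from 25, 30 and 40 points up and turned to 1.85 points with at least 10 cytosines, where 183 regions were left. The other 8 alternatives gave -4.13 to -1.25 points.

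The difference between the gene-rich distal and the gene-poor part, -7.78 points, was -15.2, -16.9 and -18.8 points from 25, 30 and 40 points up, -1.57 points under 50% repeat-masked, -2.18 and -1.47 points with the boundary at 110 and 120 Mb, -0.77 points at equal TSS distance (5.68, 5.33 and 1.04 points with the boundary at 110, 120 and 130 Mb) and 1.33 points with at least 10 cytosines. Leaving out the window from 100 to 110 Mb, chosen after the data were seen, gave -5.95 points. The lowest window share was 54.8% in 5 Mb and 68.3% in 20 Mb windows, against 56.2%. Regions per 1000 sites were 43.4 by fragments of 40 to 220 bp and 2.07 from 30 points up, against 9.62, because these change what is counted. The unknown read depth limits every single value, and 170 regions rest on 1 DMC.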
